A study of Rattus norvegicus with 78 samples.

Results

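Gbp2, Gbp5, Irf1, Irf7, Isg15, Mx1 and Mx2 are 7 genes that cells switch on when they receive an interferon signal, and their transcripts were followed here in sperm of the rat cauda epididymis. The genes were chosen with earlier results of these data known and were identified by their symbol on the array. Of them 7 of 7 were found among the 14506 genes that the platform annotation names without ambiguity, each by 1 probe set. The largest difference was in time, not in treatment: Gbp5 was 1.48-fold higher after a recovery period than at the end of exposure in corn oil rats and 1.38-fold higher in DBCP rats. Gbp2 rose by a smaller amount in DBCP rats, and Gbp2 and Irf1 passed the test in corn oil rats in only part of the settings tried, while Irf7, Isg15, Mx1 and Mx2 passed it in neither treatment. Over all 29214 probe sets, 24.3% passed it over time in corn oil rats and 13.5% in DBCP rats. None of the 7 passed it between DBCP and corn oil rats, where 0% of all probe sets passed at either time.

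Interferons are secreted proteins that warn neighbouring cells of infection. Type I interferons signal through JAK kinases to transcription factors that bind the interferon stimulated response element in promoters, whereas interferon gamma, made mainly by T and natural killer cells, acts mainly through the gamma activated site. Irf1 encodes a transcription factor that interferon gamma induces directly, and Irf7 encodes the factor that amplifies production of type I interferons. Gbp2 and Gbp5 encode guanylate-binding proteins, large GTPases that attack vacuoles of intracellular pathogens and assist inflammasomes, and they respond strongly to interferon gamma. Isg15 encodes a ubiquitin-like protein that is attached to other proteins, and Mx1 and Mx2 encode dynamin-like GTPases that block viruses; these respond chiefly to type I interferons. The cauda epididymis, where mature sperm are stored, normally also holds resident macrophages and lymphocytes.

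The study exposed Fischer 344 rats for 3 months to corn oil as vehicle or to DBCP (1,2-dibromo-3-chloropropane), a nematode fumigant toxic to male germ cells, at 5 mg/kg/day, in search of sperm transcripts that mark testis damage. Sperm RNA was hybridised to 1 array per sample: 20 corn oil and 20 DBCP arrays at the end of exposure, and 19 corn oil and 19 DBCP arrays of rats that had a recovery period after it. Neither the length of the recovery nor the age of the rats is given in the sources used here. Rats of the recovery groups were therefore also older by an unknown time, and time since dosing and age cannot be told apart. The sample labels give no batch of collection or hybridisation, so a batch that follows time cannot be told apart from it either. The sperm were released from punctured tissue, pelleted and treated with a red cell lysis buffer, steps that leave other cells of the epididymis possible. The labels call the samples biological replicates.

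Gbp5 and Gbp2 are neighbours on rat chromosome 2, at 233910999 to 233930320 and 234005727 to 234021812 of the RefSeq build GRCr8. Mx1 (50269056 to 50294699) and Mx2 (50375101 to 50399373) lie together on chromosome 11. Irf1 is on chromosome 10 (38417935 to 38424946), Irf7 on chromosome 1 (205796956 to 205800543) and Isg15 on chromosome 5 (172066369 to 172067656). RefSeq promoter sequences, from 250 bases before to 50 after the start of the gene, were matched for 5 of the 7, all but Isg15 and Mx2. They were searched on both strands for the 9-letter core GAAANNGAA of the interferon stimulated response element, whose reverse complement is TTCNNTTTC, and for the 9-letter core TTCNNNGAA of the gamma activated site, which reads the same on both strands. Of the 5, Gbp2, Gbp5 and Irf7 held the first core and Irf1 the second, and neither was found in the window of Mx1. These cores are short: 9.71% of all 33469 promoters hold the first and 8.87% the second, so a match is a description of the letters and not a site shown to work. The stretches around 1 match of each gene are shown because their letters match the cores of elements through which interferon is known to act. They come from genes that passed the test over time in at least 1 treatment (Gbp5, Gbp2, Irf1) and from Irf7, which did not pass it. Capitals mark the core.
Gbp2, chr2:234005671-234005730, plus strand: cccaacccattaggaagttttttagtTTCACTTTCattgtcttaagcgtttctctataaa
Gbp5, chr2:233910918-233910977, plus strand: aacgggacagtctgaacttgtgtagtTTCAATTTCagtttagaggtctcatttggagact
Irf1, chr10:38417767-38417826, plus strand: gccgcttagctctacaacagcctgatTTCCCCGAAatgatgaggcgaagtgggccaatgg
Irf7, chr1:205800058-205800117, minus strand: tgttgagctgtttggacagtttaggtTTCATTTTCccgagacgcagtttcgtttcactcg
The core began 30 bases before the start in Gbp2, 55 bases before it in Gbp5, with another match 159 bases before it, 142 bases before it in Irf1 and 68 bases before it in Irf7. For Irf7 and Mx1 the start in the promoter table lies inside the gene span given above, so the Irf7 stretch is within that span and precedes only the start of the table. The capitals of Gbp2, Gbp5 and Irf7 are the reverse complement of the element.

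Values are on the log2 scale on which the authors deposited them. Array medians lay between 6.55 and 6.75, and any pair of arrays correlated across probe sets at r between 0.860 and 0.988. Sperm is the tissue in the labels, but the series title speaks of testis. Bright transcripts of late spermatids, which testis holds too and which therefore cannot separate sperm from testis, were present, among them Prm1, a protamine that packs sperm DNA, with group means between 12.82 and 13.16. Leukocyte genes were measured too: Cd74, the invariant chain of MHC class II, had group means between 10.89 and 11.87, and Ptprc, the pan-leukocyte antigen CD45, between 8.11 and 8.86. An array value has no true 0, so no marker can be said to be absent. Averaged over 78 arrays, the probe sets of Gbp5 (7.28), Irf1 (7.13), Irf7 (7.02) and Gbp2 (6.91) were above the median probe set (6.69), whereas Mx2 (6.38), Isg15 (6.19) and Mx1 (6.12) were below it, at or above 36.5%, 29.4% and 27.1% of probe sets. Values of different probe sets are not comparable as transcript amounts, so each gene is ordered below across the 4 groups only.

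**Figure D1:**
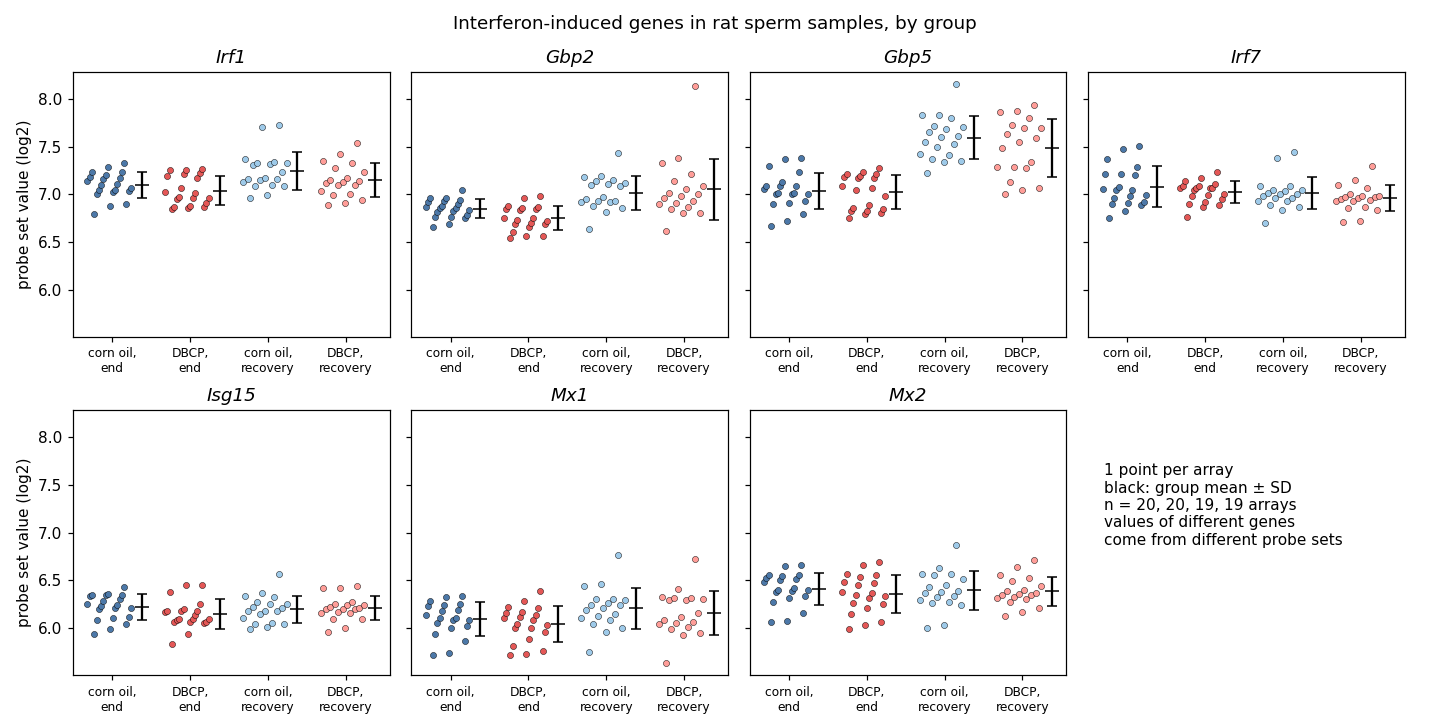
Log2 probe set value of each gene (vertical axis) on every array of the 4 groups (horizontal axis), with the group mean and SD in black (n = 20, 20, 19 and 19). Gbp5 in the recovery groups is mostly above the end-of-exposure groups, Gbp2 has 1 DBCP recovery array at 8.14, and the groups of Irf7, Isg15, Mx1 and Mx2 overlap over most of their ranges.

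The guanylate-binding proteins changed most over time. Gbp5 lay between 6.67 and 7.38, with a median of 7.01, in corn oil rats at the end of exposure and between 7.22 and 8.16, with a median of 7.60, in corn oil rats after recovery. In DBCP rats it went from a range of 6.75 to 7.27, median 7.06, to a range of 7.00 to 7.94, median 7.55. The ranges overlap in both treatments, but 15 of 19 recovery arrays of each treatment were above the highest array of the earlier group. The difference was 0.56 ± 0.07 (SE) on the log2 scale in corn oil rats (adjusted p = 5.86e-08 by limma, Benjamini-Hochberg over 29214 probe sets), with 19 of 19 recovery arrays above the earlier mean. For DBCP rats it was 0.47 ± 0.07 (adjusted p = 1.78e-06), with 18 of 19 above. From lowest to highest, the group means were DBCP at the end (7.02 ± 0.18, SD), corn oil at the end (7.03 ± 0.19), DBCP recovery (7.49 ± 0.30) and corn oil recovery (7.60 ± 0.22). Within either time the neighbours in this order were not told apart by the test.

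Gbp2 moved the same way by less. Its corn oil arrays lay between 6.66 and 7.04, median 6.85, at the end of exposure and between 6.64 and 7.44, median 6.98, after recovery. Its DBCP arrays went from 6.54 to 6.98, median 6.74, to 6.62 to 8.14, median 6.98. The groups overlap widely, and 9 of 19 recovery arrays of each treatment exceeded the highest earlier array. The rise was 1.12-fold in corn oil rats (0.17 ± 0.06, limma adjusted p = 0.0432, 17 of 19 arrays above the earlier mean). It was 1.23-fold in DBCP rats (0.30 ± 0.06, adjusted p = 0.000427, 18 of 19). DBCP recovery replicate 10 stood apart at 8.14, the next array being at 7.38, and without it the rise in DBCP rats was 0.24 and still passed. The corn oil result is less firm: it passed no longer when any 1 of 18 single arrays was left out (adjusted p between 0.05002 and 0.0882).

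Of the transcription factors, Irf1 was higher after recovery in corn oil rats. Its range there went from 6.80 to 7.33, median 7.10, to 6.97 to 7.73, median 7.17, so that 5 of 19 recovery arrays exceeded every earlier one. The 1.11-fold difference (0.15 ± 0.05, limma adjusted p = 0.0391, 15 of 19 arrays above the earlier mean) passed the test, but not when any 1 of 13 single arrays was left out (adjusted p between 0.0501 and 0.0900). In DBCP rats Irf1 lay between 6.85 and 7.27, median 6.99, at the end and between 6.89 and 7.54, median 7.13, after recovery, a difference of 0.11 ± 0.05 that did not pass (adjusted p = 0.176). Irf7 showed no such shift. Its ranges were 6.75 to 7.51 (median 7.04) and 6.70 to 7.44 (median 7.00) in corn oil rats at the end and after recovery. The DBCP ranges were 6.77 to 7.24 (median 7.05) and 6.71 to 7.30 (median 6.97). Recovery minus end was -0.07 ± 0.05 in corn oil rats (95% interval -0.18 to 0.03, adjusted p = 0.325) and -0.06 ± 0.05 in DBCP rats (-0.17 to 0.04, adjusted p = 0.480).

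The antiviral genes, which are the dimmest of the 7, did not pass in either treatment. Isg15 lay between 5.93 and 6.43 (median 6.23) in corn oil rats at the end of exposure and between 5.98 and 6.56 (median 6.18) after recovery. In DBCP rats the ranges were 5.83 to 6.45 (median 6.12) and 5.95 to 6.44 (median 6.20). These 4 ranges overlap over most of their span. The difference over time was -0.02 ± 0.05 in corn oil rats (95% interval -0.11 to 0.07, adjusted p = 0.754) and 0.06 ± 0.05 in DBCP rats (-0.03 to 0.15, adjusted p = 0.419). Mx1 lay between 5.72 and 6.34 (median 6.10) and between 5.74 and 6.76 (median 6.20) in corn oil rats, and between 5.71 and 6.39 (median 6.06) and between 5.63 and 6.72 (median 6.11) in DBCP rats, before and after recovery. Its differences were positive but within the error, 0.11 ± 0.07 in corn oil rats (95% interval -0.02 to 0.24, adjusted p = 0.188) and 0.12 ± 0.07 in DBCP rats (-0.01 to 0.25, adjusted p = 0.237). Mx2 lay between 6.06 and 6.65 (median 6.41) and between 6.00 and 6.87 (median 6.38) in corn oil rats, and between 5.99 and 6.69 (median 6.35) and between 6.13 and 6.71 (median 6.35) in DBCP rats. Here the differences were -0.02 ± 0.06 (95% interval -0.13 to 0.10, adjusted p = 0.867) and 0.03 ± 0.06 (-0.09 to 0.15, adjusted p = 0.802). For Isg15 and Mx2 the sign in corn oil rats depends on the scaling: after quantile normalization they were at 0.01 and 0.02.

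The 3 of 7 genes that passed in corn oil rats stand beside 24.3% of all probe sets that passed there in either direction, 11.5% of them in the upward direction. In DBCP rats 2 of 7 passed, beside 13.5% of all probe sets in either direction and 7.28% upward. With so few genes, these shares do not set the 7 apart from the array as a whole. Their median difference was 0.11 in each treatment, against -0.04 in corn oil rats and 0.01 in DBCP rats over all probe sets. Within the replicate numbers 1 to 10 and 11 to 20, taken as separate sets, Gbp5 passed in both for corn oil rats (0.63, adjusted p = 7.62e-05, and 0.49, adjusted p = 0.0177) and for DBCP rats (0.46, adjusted p = 0.00234, and 0.48, adjusted p = 0.0126). Gbp2 was at 0.21 and 0.12 in corn oil rats (adjusted p = 0.152 and 0.363) and at 0.28 and 0.32 in DBCP rats (adjusted p = 0.0773 and 0.0170). Irf1 was at 0.14 and 0.15 in corn oil rats (adjusted p = 0.267 and 0.211). Each of these differences kept its direction in both sets, with fewer arrays in each.

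**Figure D2:**
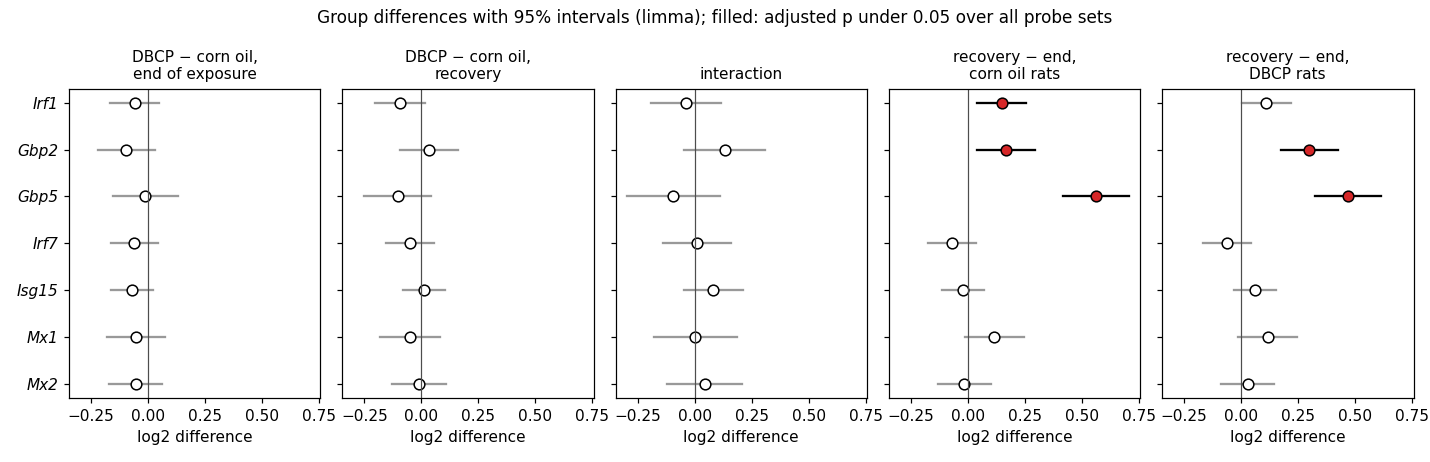
Log2 difference of each gene (points) with its 95% interval (lines) in the 5 comparisons, from the limma fit over 78 arrays; filled points have an adjusted p under 0.05. The 3 panels that involve DBCP against corn oil hold no filled point, and Gbp5 is farthest from 0 in both panels of recovery minus end.

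No difference between DBCP and corn oil rats passed the test for any of the 7 genes. At the end of exposure 0% of the 29214 probe sets passed (limma; unadjusted, 3386 had a p under 0.05, 0 of the 7 among them), and the 7 genes were between -0.10 ± 0.06 (Gbp2, limma adjusted p = 0.532) and -0.01 ± 0.07 (Gbp5, adjusted p = 0.953). All 7 were below 0 as deposited, with a median of -0.06 against -0.02 over all probe sets, of which only 38% were above 0. Gbp5 turned to 0.0042 when arrays were centred on their medians. The 95% intervals of the 7 reach from -0.22 (Gbp2) to 0.13 (Gbp5), so differences beyond these bounds lie outside every interval. At this time the late spermatid and sperm genes were all higher in DBCP rats than in corn oil rats (19 of 19 above 0, median 0.39, 0 passing). Without the 6 arrays of limma weight under 0.5 the median of these genes was 0.22, with 18 of 19 above 0. The leukocyte genes were mostly lower in DBCP rats (14 of 18 below 0, median -0.07, 0 passing). The part of these shifts in the differences of the 7 genes was not tested. None of the 7 passed in the fits with each level as a covariate. None had passed without it, so this count cannot show that part.

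After recovery 0% of probe sets passed between DBCP and corn oil rats (limma; 1084 had an unadjusted p under 0.05, 0 of the 7 among them). Gbp5 was lowest among the 7 at -0.11 ± 0.07 (adjusted p = 0.983) and Gbp2 highest at 0.03 ± 0.06 (adjusted p = 0.983), with 2 genes above 0 and 5 below. Without DBCP recovery replicate 10 Gbp2 was at -0.03 (adjusted p = 0.993), so its sign rests on that array, and Isg15 turned from 0.01 to -0.01 under quantile normalization. Intervals of the 7 reached from -0.25 (Gbp5) to 0.16 (Gbp2).

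The interaction asks whether the change over time differed between the treatments, and 0% of probe sets passed it (limma; 3170 had an unadjusted p under 0.05, 0 of the 7 among them). The rise of Gbp2, 0.17 in corn oil and 0.30 in DBCP rats, gave an interaction of 0.13 ± 0.09 (95% interval -0.05 to 0.31, adjusted p = 0.514). That of Gbp5 was -0.09 ± 0.10 (-0.30 to 0.11, adjusted p = 0.678) and that of Irf1 -0.04 ± 0.08 (-0.19 to 0.12, adjusted p = 0.837). The call of Irf1 in corn oil rats alone is therefore not shown to be a difference between treatments.

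The wider interferon pathway was read from 11 further lists of ligands, receptors, signalling proteins, sensors, effectors and inhibitors, with 114 genes on the array. Over time 40 of the 114 rose and 7 fell in corn oil rats (median 0.08), and 26 rose and 2 fell in DBCP rats (median 0.07). Over all probe sets 11.5% were higher and 12.8% lower in corn oil rats, and 7.28% higher and 6.19% lower in DBCP rats. The falls depended on the setting. With the sperm level as a covariate 19 of the 114 fell and 42 rose in corn oil rats. In DBCP rats 9 fell and 26 rose under it. Of all 29214 probe sets, 14146 passed in corn oil rats and 8104 in DBCP rats in these fits, in either direction. The median over all probe sets was -0.07 and -0.05 there. Without the 6 arrays of low weight 11 and 2 of the 114 fell, and after quantile normalization 3 and 3. None passed between DBCP and corn oil rats at either time or in the interaction (limma, 0 of 114 each), where 13, 7 and 10 had an unadjusted p under 0.05. With the leukocyte level described below as a covariate, 4 of the 114 were higher and 2 lower in DBCP than in corn oil rats at the end of exposure, beside 1089 of all probe sets that passed in that fit. Of the ligands, Ifng, the interferon gamma gene, rose in DBCP rats (0.19 ± 0.06, adjusted p = 0.0217), and 0 of 5 ligands passed in corn oil rats. Among 4 receptor genes 2 rose in each treatment: Ifngr1, the ligand-binding chain of the interferon gamma receptor (0.23 ± 0.08 in corn oil, 0.30 ± 0.08 in DBCP rats), and Il10rb, a chain shared by the receptors of interferon lambda and interleukin 10 (0.37 ± 0.08 and 0.23 ± 0.08).

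Of 5 genes of JAK and STAT signalling 3 rose in corn oil rats and 2 in DBCP rats. The kinase genes Jak1 (0.43 ± 0.10 and 0.27 ± 0.10) and Jak2 (0.31 ± 0.07 and 0.21 ± 0.07) did so in both, and Stat3, which serves mainly interleukin 6 type cytokines, in corn oil rats (0.23 ± 0.06). The other interferon regulatory factors were mixed. In corn oil rats 3 of 7 rose and 2 fell, with Irf2, an antagonist of Irf1, at 0.17 ± 0.05, the lymphocyte factor Irf4 at -0.15 ± 0.04 and the corepressor Irf2bp1 at -0.21 ± 0.05, and Irf2bp1 was the only one of the 7 to pass in DBCP rats (-0.17 ± 0.05). Of 12 sensors and adaptors 4 rose and 0 fell in each treatment. They included Tlr3 (0.37 ± 0.09 and 0.35 ± 0.09) and Tlr7 (0.30 ± 0.09 and 0.36 ± 0.09), endosomal receptors of viral RNA, and Tbk1 (0.12 ± 0.04 and 0.13 ± 0.04), the kinase that activates Irf3 and Irf7.

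Other antiviral effectors formed the largest list, of which 13 of 41 rose and 2 fell in corn oil rats and 9 rose and 0 fell in DBCP rats. Sp100, a component of nuclear bodies, rose in both (0.49 ± 0.09 and 0.40 ± 0.09). In corn oil rats the exonuclease gene Isg20 (0.52 ± 0.10), Ifitm1, which hinders viral entry (0.35 ± 0.07), and the secreted glycoprotein gene Lgals3bp (0.54 ± 0.10) had the smallest p beside it. For DBCP rats these were Trim21, a cytosolic antibody receptor (0.30 ± 0.05), Ifi44l (0.36 ± 0.07) and Eif2ak2, the RNA-activated kinase PKR (0.18 ± 0.04). Of the 3 other interferon-induced GTPases on the array, Ifi47 (0.38 ± 0.07 and 0.33 ± 0.07) and Irgm (0.15 ± 0.06 and 0.16 ± 0.06), of the immunity-related GTPase family, rose in both treatments like Gbp5 and Gbp2.

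The genes that attach ISG15 to proteins went both ways. Herc6, a ligase for ISG15 in mouse, rose (0.18 ± 0.06 in corn oil, 0.35 ± 0.06 in DBCP rats). Ube2l6, the conjugating enzyme, fell in both treatments (-0.16 ± 0.05 and -0.16 ± 0.05), and Uba7, the activating enzyme, fell in corn oil rats (-0.18 ± 0.05). Class I antigen presentation rose in part: 7 of 16 genes in corn oil and 2 of 16 in DBCP rats, 0 lower. B2m, the light chain of class I molecules (0.55 ± 0.10 and 0.46 ± 0.10), and the peptide-trimming enzyme gene Erap1 (0.35 ± 0.06 and 0.40 ± 0.06) did so in both, and the proteasome activator genes Psme1 (0.23 ± 0.06) and Psme2 (0.26 ± 0.07) in corn oil rats.

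Among 9 interferon-induced chemokines and enzymes 3 rose and 1 fell in corn oil rats and 2 rose in DBCP rats. Ccl5, a chemokine of T and natural killer cells, rose in both (0.60 ± 0.08 and 0.47 ± 0.08), and Cxcl9, a chemokine induced by interferon gamma, in DBCP rats (0.21 ± 0.06). Wars1, the tryptophanyl-tRNA synthetase gene (0.63 ± 0.12), and Ido1, which degrades tryptophan (0.25 ± 0.09), rose in corn oil rats, where Ciita, the MHC class II transactivator, fell (-0.16 ± 0.04). Of 8 inhibitors of the pathway 2 rose in corn oil rats, the phosphatase genes Ptpn6 (0.21 ± 0.05) and Ptpn2 (0.13 ± 0.05), and Ptpn6 alone in DBCP rats (0.18 ± 0.05). Ptpn6 is also a general leukocyte gene and is on both lists.

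**Figure D3:**
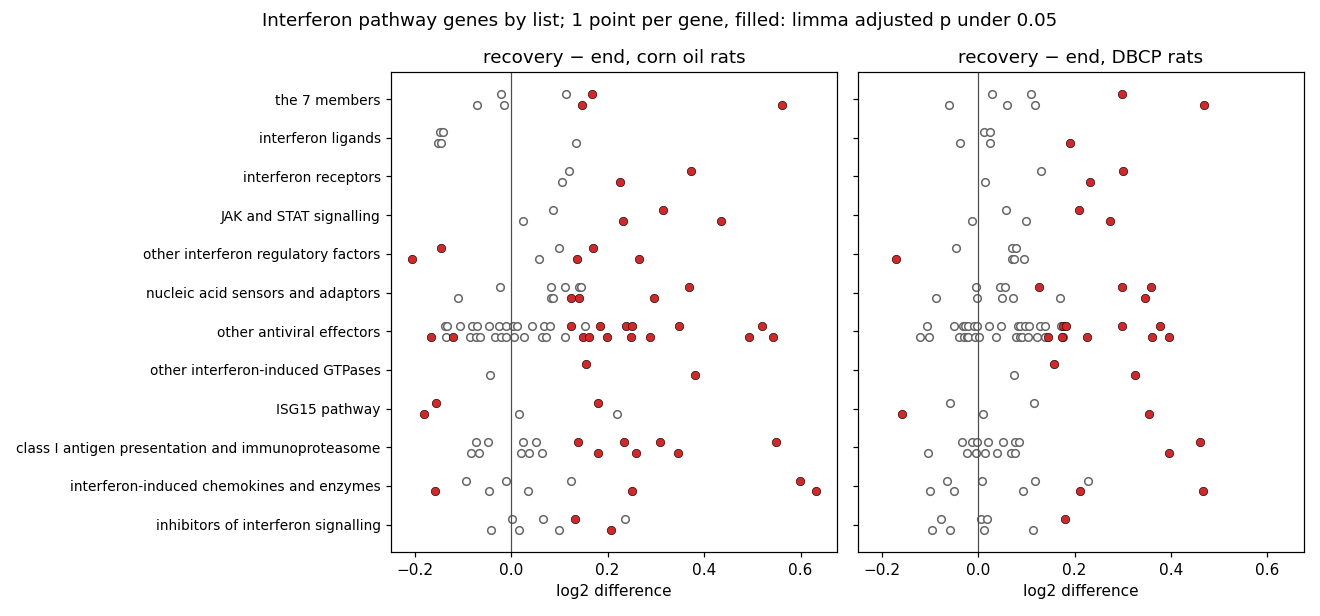
Log2 difference, recovery minus end, of each gene (points) in the 7 interferon-induced genes and the 11 further interferon lists, for corn oil rats on the left and DBCP rats on the right; filled points have a limma adjusted p under 0.05. Most filled points are to the right of 0 (40 rises against 7 falls in corn oil rats, 26 against 2 in DBCP rats, without the 7), and many genes of each list lie near 0.

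General leukocyte markers moved with these rises, while the lists of single leukocyte types differed. Of 18 general leukocyte genes 15 rose in corn oil rats (median 0.42) and 13 in DBCP rats (median 0.35), and 0 fell in either. Their mean level per array was between 8.10 and 8.95 in corn oil and between 8.01 and 8.78 in DBCP rats at the end of exposure, and between 8.48 and 9.49 and between 8.40 and 9.21 after recovery. T and natural killer cell genes rose in 10 of 18 cases and fell in 1 in corn oil rats, and rose in 11 in DBCP rats, with levels of 6.94 to 7.33 and 6.93 to 7.26 before and 7.13 to 7.73 and 7.17 to 7.54 after recovery. Macrophage and dendritic cell genes rose in 5 and 7 of 16 cases and fell in 1 each. Neutrophil genes rose in 1 and 2 of 11 cases and fell in 2 and 1. Of 4 B and plasma cell genes 0 rose in either treatment, and 1 fell in corn oil rats. Over all probe sets 11.5% were higher and 12.8% lower in corn oil rats, and 7.28% higher and 6.19% lower in DBCP rats. Sperm genes went the other way, with 11 of 19 late spermatid and sperm genes lower in corn oil rats (median -0.37) and 17 of 19 in DBCP rats (median -0.79). In bulk RNA like this, more cells of a type and more RNA per cell cannot be told apart.

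With the level of 17 leukocyte genes (without Ptpn6) as a covariate, the differences of Gbp5, Gbp2 and Irf1 over time became smaller. Those of Isg15 and Mx2 in corn oil rats changed sign and became larger in size. Gbp5 went from 0.56 to 0.27 in corn oil rats (adjusted p = 0.0194) and from 0.47 to 0.23 in DBCP rats (adjusted p = 0.00287), and still passed in both. Gbp2 was at 0.02 in corn oil rats (adjusted p = 0.917) and at 0.18 in DBCP rats (adjusted p = 0.0365). Irf1 turned to -0.05 in both (adjusted p = 0.651 and 0.484). Of the 114 other interferon genes 1 rose and 0 fell in corn oil rats under this covariate, and 15 rose and 6 fell in DBCP rats. Of all 29214 probe sets, 670 passed in corn oil rats and 7340 in DBCP rats under it, in either direction. These fits show that the values move together over arrays and do not say which follows which.

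**Figure D4:**
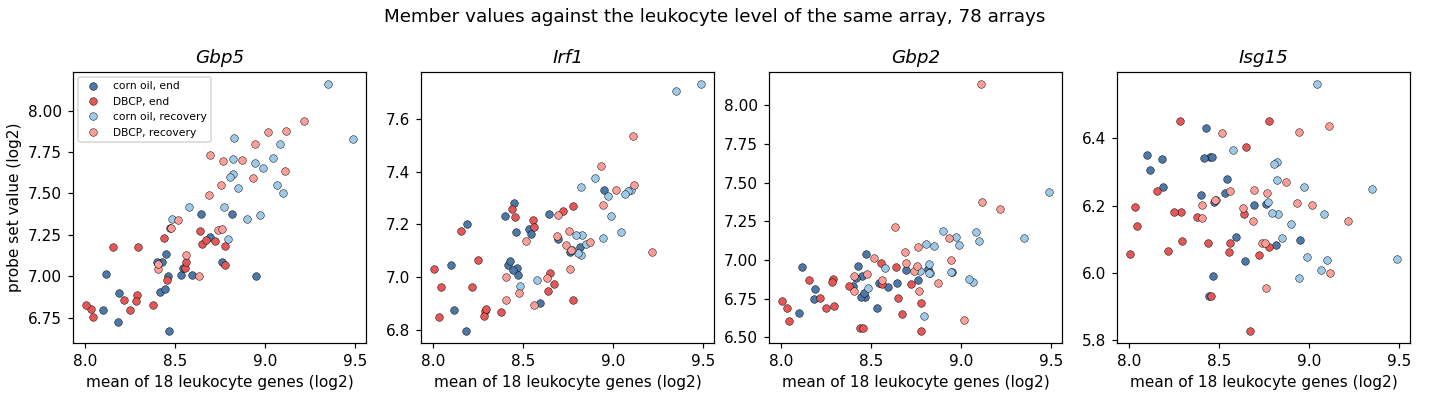
Log2 probe set value of Gbp5, Irf1, Gbp2 and Isg15 (vertical axes, each with its own scale) against the mean log2 level of 18 leukocyte genes on the same array (horizontal axes), 1 point per array coloured by group, 78 arrays. Gbp5 and Irf1 follow the leukocyte level across and within groups, Gbp2 does so less, with 1 array at 8.14, and Isg15 does not.

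The 7 genes also differed in how they varied among arrays of the same group. Deviations from the group means over 78 arrays, which share array, RNA quality and cell makeup, are given here as a description. Gbp5 followed the leukocyte level most (r = 0.69, rho = 0.68, r = 0.71 without the 2 arrays farthest in that level), then Irf1 (r = 0.64, rho = 0.59, r = 0.58). Gbp2 (r = 0.39, rho = 0.34, r = 0.34) and Mx1 (r = 0.39, rho = 0.39, r = 0.34) did so less and Irf7 least of those above 0 (r = 0.31, rho = 0.22, r = 0.20). Isg15 (r = -0.21, rho = -0.29, r = -0.16) and Mx2 (r = -0.25, rho = -0.20, r = -0.24) were below 0. Some genes were closer to another marker list. Gbp5 followed the T and natural killer cell level (r = 0.75, rho = 0.72, r = 0.73). Gbp2 followed the macrophage and dendritic cell level (r = 0.51, rho = 0.39, r = 0.39). Irf7 followed the level of red cell genes (r = 0.61, rho = 0.59, r = 0.56) and that of neutrophil genes (r = 0.47, rho = 0.45, r = 0.42).

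Among themselves the genes covaried weakly. The 21 pairs had r between -0.18 and 0.53, with a median of 0.08 and 14 pairs above 0. Gbp5 with Irf1 was the highest pair (r = 0.53, rho = 0.48, r = 0.48 without the 2 farthest arrays), followed by Gbp2 with Mx1 (r = 0.49, rho = 0.43, r = 0.47) and Irf1 with Mx1 (r = 0.40, rho = 0.34, r = 0.33). The neighbours Gbp2 and Gbp5 were at r = 0.27 (rho = 0.28), and the neighbours Mx1 and Mx2 at r = 0.04 (rho = 0.12). Isg15 was at r = -0.04 with Mx1 and at r = 0.21 with Mx2. The 3 antiviral genes, known to rise together in infected cells, thus covaried little on these arrays. Their probe sets were the dimmest of the genes followed here, and the part of low signal in this was not tested.

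The genes whose deviations were most like the mean of the 7 over the 78 arrays were Elmo1 (r = 0.76), Coro1c (r = 0.68), Cyria (r = 0.66), Nckap1l (r = 0.66) and Apbb1ip (r = 0.65), and without the 2 farthest arrays these lay between 0.58 and 0.72. Gbp5 was nearest to Git2 (r = 0.78) and Ep300 (r = 0.75), and Irf1 to Arhgef1 (r = 0.71) and Pik3ap1 (r = 0.69). Gbp2 was nearest to Thbs1 (r = 0.72) and St3gal1 (r = 0.70), and at 0.42 and 0.46 to these without the 2 farthest arrays. Irf7 was nearest to Cdc25b (r = 0.62) and to Alas2 (r = 0.60), the haem synthesis gene of red cells. Isg15 was nearest to Bst2 (r = 0.60), itself an interferon-induced gene, which encodes the tether that retains budding viruses, and to Kdr (r = 0.58). Mx1 was nearest to Elmo1 (r = 0.58) and Cyria (r = 0.53), and Mx2 to Cwc22-ps1 (r = 0.57) and Isca1 (r = 0.57).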

How the data were processed

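RNA of rat sperm was measured on 78 arrays in 4 groups (20, 20, 19 and 19). The log2 values per probe set (29214, 0 missing) are those deposited by the authors. Their background correction, normalization and summarisation were not given in the sources used here; limma, without a version, is named per the submitters' processing notes. Probe sets were named through GEO's platform annotation (15310 with 1 symbol, 323 with several, 13581 with none; 15279 matched RefSeq), and a gene was read from its probe set of highest mean.

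limma 3.58.1 (lmFit, eBayes; R 4.3.3) fitted 1 mean per group over the 78 arrays, with 5 contrasts, Benjamini-Hochberg adjustment over all probe sets and a threshold of 0.05. The fit was tested on simulated data. Array number limits the precision: the median SE was 0.06. Tables and promoter searches used Python 3.11.15. Other interferon genes are named by a rule: up to 4 passing genes of smallest p per list and comparison; genes most alike are the 5 (mean of the 7) or 2 (each gene) of highest r.

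The 7 genes, the lists and the tests were chosen with earlier results of these data known. Arrays with the same replicate number in different groups did not deviate together as a rule, though single pairs varied widely. Over 20 pairs of corn oil and DBCP arrays at the end of exposure the median r was 0.06, with a range of -0.49 to 0.57. In 3 of these pairs the corn oil array correlated most with the DBCP array of its own number. Medians were between -0.08 and -0.03 in the other comparisons of groups. The numbers were therefore not taken as pairs. Alternatives were other scalings, array weights, a filter on dim probe sets, a trended prior, the groups of a contrast alone, blocks and subsets of replicate numbers, marker levels as covariates, 1 probe set per gene, a threshold of 0.10 and leaving out each array. Counts of the other interferon lists under some of these were added after seeing the data. The proteins of the 7 genes were not analysed here.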

Additional observations from a re-analysis of the deposited data

How the results depend on the processing

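The number of arrays limits the precision. Of the values of single genes that passed, 77 kept direction and call under an alternative, 12 no longer passed and 1 reversed (Irf1 in corn oil rats, -0.053 with the leukocyte level as a covariate). Of those that had not passed, 473 stayed so in the same direction, 1 passed (Irf1 in DBCP rats, 0.18 with the sperm level as a covariate) and 51 changed sign around 0; the causes were not tested. Gbp5 over time passed in both treatments under each alternative run. Each gene has 1 probe set, so the fit with another probe set of the same gene was not run.

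With the replicate number as a block (replicate block), 2 of the 7 passed over time in corn oil rats and 2 in DBCP rats, with 6226 and 3887 probe sets passing; Irf1 was at 0.15 in corn oil rats (adjusted p = 0.0539). Irf1 in corn oil rats was at 0.11 with array weights (adjusted p = 0.0806) and at 0.12 without 6 arrays of weight under 0.5 (adjusted p = 0.0716), and Gbp2 there at 0.14 with the sperm level as a covariate (adjusted p = 0.0745).

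In corn oil rats over time 1 of the 7 passed in numbers 1 to 10, 1 in numbers 11 to 20 and 1 with the leukocyte covariate, and between 1 and 3 when single arrays were left out; in DBCP rats 1 passed in numbers 1 to 10. Probe sets passing in corn oil rats were 385 in numbers 11 to 20, 670 with the leukocyte covariate, 14146 with the sperm covariate and 4382 with 1 probe set per gene. For DBCP rats over time they were 2375 with dim probe sets filtered, 505 in numbers 11 to 20, 7340 with the leukocyte and 8104 with the sperm covariate. Between DBCP and corn oil at the end of exposure they were 1089 with the leukocyte covariate, 1 with 1 probe set per gene, and 0 to 14 when single arrays were left out.

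Changes of sign were as follows. DBCP minus corn oil at the end: Gbp5 0.0042 with median centring, 0.0068 in numbers 1 to 10, 0.035 with the leukocyte covariate and -0.031 to 0.0062 with single arrays left out, Mx1 0.016 in numbers 11 to 20 and Mx2 0.00041 with the sperm covariate. After recovery: Gbp5 0.00054, Mx1 0.0025 and Isg15 -0.0086 with the leukocyte covariate, Isg15 -0.014 with quantile normalization and -0.0026 with centring, Irf7 0.0086 in numbers 1 to 10, Isg15 -0.038 and Mx2 0.073 in numbers 11 to 20, and with single arrays left out Gbp2 -0.026 to 0.058, Isg15 -0.0020 to 0.031 and Mx2 -0.032 to 0.016. Interaction: Irf1 0.0042 with array weights, 0.024 in numbers 1 to 10 and 0.0033 with the leukocyte covariate, Irf7 -0.020 with centring, -0.030 in numbers 11 to 20 and -0.013 to 0.033 with single arrays left out. Mx1 there was at -0.056 with quantile normalization, -0.027 with centring, -0.0044 with the replicate block, -0.075 in numbers 11 to 20, -0.026 without low-weight arrays, -0.015 with the sperm covariate and -0.029 to 0.034 with single arrays left out, and Mx2 at -0.0059 with quantile normalization, -0.0034 with array weights, -0.071 in numbers 1 to 10 and -0.012 with the sperm covariate. Corn oil over time: Isg15 0.013 with quantile normalization, 0.0084 with centring and 0.032 with the leukocyte covariate, Mx1 -0.034 with the latter, Mx2 0.023, 0.015 and 0.068 in these settings, 0.036 in numbers 1 to 10, 0.0060 without low-weight arrays and -0.042 to 0.0060 with single arrays left out. DBCP over time: Irf1 -0.050 and Mx1 -0.0018 with the leukocyte covariate, Isg15 -0.0047 in numbers 11 to 20 and -0.019 with the sperm covariate, Mx2 -0.011 with array weights, -0.034 in numbers 1 to 10 and -0.090 with the sperm covariate.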
